A study of Glycine max with 12 samples.

Results

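The 56 gene models described here differed between defective and standard seed coats in opposite directions in 2 soybean varieties when the seed weighed 400–500 mg. They were chosen on those values alone. A model was taken when each isoline pair had at least 5 RPKM (read hits scaled to the length of the model and to the size of the library) in either library, when Clark defective had at least 2 times the RPKM of Clark standard, and when Harosoy standard had at least 2 times the RPKM of Harosoy defective. They made up 56 of the 78773 models and 54 of the 69145 loci. The mirrored criteria, lower in Clark defective and higher in Harosoy defective, were met by 113 models at 79 loci, where 1.96% of all models were at least 2-fold lower in Clark defective and 4.98% higher in Harosoy defective.

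Seed coats were dissected from immature seeds of greenhouse plants, and the seeds had been pooled and sorted by fresh weight into 50–100, 100–200 and 400–500 mg. Clark defective (CD) was compared with Clark standard (CS), both with the color alleles i R T and a self-black coat, and Harosoy defective (HD) with Harosoy standard (HS), both with I r t and a yellow coat. The defective isolines differ from the standard isolines by a backcrossed mutation known as the net pattern, in which the coat breaks open and whose gene or genes were not identified. RNA-Seq was made from 1 library per line and stage, 12 libraries in all, so a difference within a pair has no replicate check and no p-value is given for it. RNA of the pigmented Clark coats was extracted by a modified protocol, so the variety cannot be told apart from the extraction. Sequencing at 100–200 mg used the GAII with 75 bp reads, whereas the other stages used a HiSeq instrument with 100 bp reads, and stage and platform therefore cannot be told apart there.

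The seed coat is maternal tissue that encloses the embryo, carries nutrients to it, and hardens as its cells lay down walls and then die. Serine carboxypeptidases trim residues from the C-terminal ends of proteins, and some relatives transfer acyl groups in secondary metabolism. Subtilisin-like proteases are mostly secreted and cut proteins in the cell wall space. Among proteinase inhibitors, the Bowman-Birk proteins of legume seeds block trypsin and chymotrypsin. Members of these families were among the models, together with wall proteins, transcription factors and enzymes of lipid and sugar metabolism.

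The library totals, inferred from the RPKM values, lay between 47.5 and 113 M hits, which are alignments of reads to models. At 400–500 mg they were 47.5 M in CD, 77.2 M in CS, 58.5 M in HD and 77.1 M in HS. The fewest hits behind any value of a member were 5, so no member was at or under the floor of 3 hits. Because the alignment let 1 read fall on as many as 25 models, near-identical models and splice models of a locus are not separate measurements. The 8 cotyledon markers were 7 storage proteins and an oleosin. At 400–500 mg they summed to 388 RPKM in CD, 707 in CS, 815 in HD and 1155 in HS. All 8 were at 1 RPKM or more in these 4 libraries. Of these sums Glyma10g39150.1, a beta-conglycinin alpha chain, made up 124, 315, 469 and 843 RPKM. The markers did not share 1 order. The glycinins, the beta-conglycinin beta subunit and the oleosin were higher in HD than in HS, and the alpha chains were lower. Glycinins Glyma03g32020.1 and Glyma03g32030.1 were higher in CD than in CS, and the other markers were lower. PRP1, a proline-rich wall protein of the young seed coat, had 12.2 RPKM in CD, 39.9 in CS, 43.1 in HD and 29.3 in HS at that stage, and PRP2, which marks the older coat, had 3292, 4584, 1313 and 3221 RPKM in the same order. The part of cotyledon RNA or of stage in the results was not tested, and in bulk tissue fewer cells of a type cannot be told apart from less RNA per cell.

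At 400–500 mg the 56 models had a median of 18.1 RPKM in CD (5.397 to 299) and 5.51 in CS (0.0419 to 81.7). In the Harosoy pair the median was 3.67 RPKM in HD (1.12 to 66.3) and 11.4 in HS (5.06 to 699.9). Most were of modest abundance, and 42 of the 56 were under 50 RPKM in all 4 late libraries. The ratio of CD to CS had a median of 2.73 and reached 432, and the ratio of HS to HD had a median of 3.14 and reached 29.1. In 45 models both CD and HS lay above both CS and HD. In 15 models the ratio was at least 3-fold in each pair. These values chose the models, so they are a description without a test.

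Of all models at 5 RPKM or more in either library, 1.27% were at least 2-fold higher in CD and 4.66% were at least 2-fold lower in HD at this stage. The 56 models made up 18.4% of the 304 models higher in CD and 5.12% of the 1093 lower in HD, whereas 45 models were higher in both defective lines. The model nearest inside the Clark criterion was Glyma17g09910.1 with a ratio of 2.01, and the nearest outside was Glyma19g37810.1 with 1.99. For Harosoy the nearest were Glyma05g30950.1 inside with 2.03 and Glyma11g05280.1, a LOB domain protein, outside with 1.97. At the RPKM minimum they were Glyma01g43420.1 inside with 5.06 RPKM and Glyma12g02540.1, a NAC domain protein, outside with 4.88 RPKM. The scatter of late isoline ratios shows the 56 models as a sparse group in the lower right of the cloud.

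**Figure D1:**
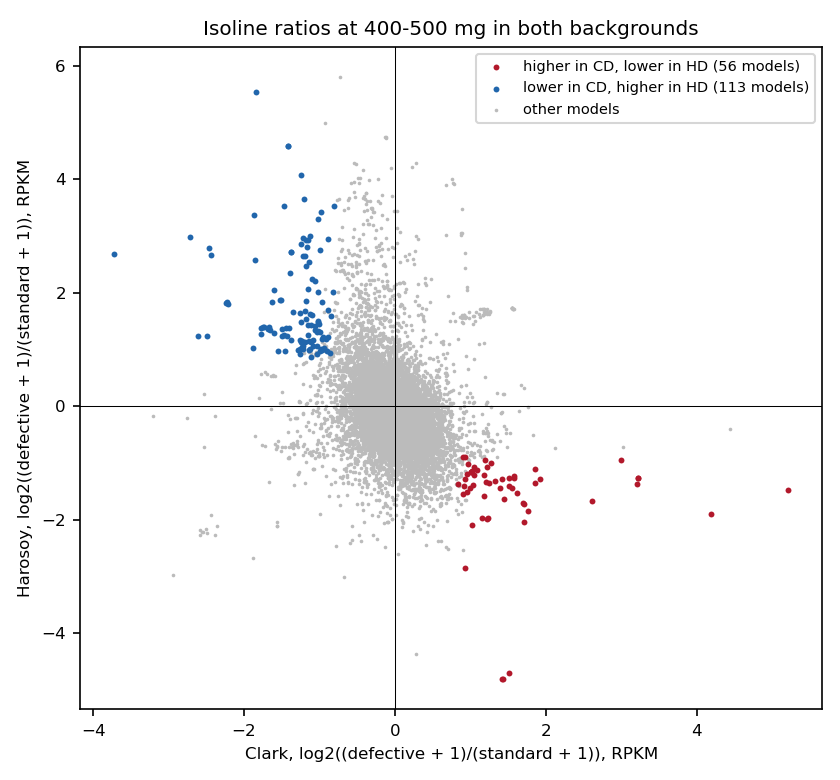
Log2 ratio of defective to standard at 400–500 mg in Clark (horizontal axis) and Harosoy (vertical axis), both with 1 RPKM added, for the 21672 models at 5 RPKM or more in either library of each pair. The 56 models higher in CD and lower in HD lie at the lower right, the 113 models of the mirrored pattern at the upper left, and the 3 lowest of the 56 points are the Bowman-Birk models and their numbered neighbor.

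A function was annotated for 33 of the 56 models in the paper's supplementary lists of differentially expressed genes, 12 were listed there as unknown and 11 were in none of the lists. One of those lists was held here only in part, and the study chose their genes on these same libraries. Serine carboxypeptidases were the largest family, with 6 of the 10 models so annotated. Each of the 6 shared its annotation with another of them, and such models may share reads. The 6 were chosen on their late values, so counts in each family are given only for its models outside the 56. Of the other 4 carboxypeptidases, 1 was at least 2-fold higher and 1 lower in CD at 400–500 mg, and 1 was higher and 0 lower in HD. At that stage 1.27% of all models were higher and 1.96% lower in CD, and 4.98% were higher and 4.66% lower in HD. Values below are given in the order 50–100, 100–200 and 400–500 mg.

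Glyma09g36080.1, serine carboxypeptidase-like 40, had 300.4, 288 and 52.1 RPKM in CD, against 247, 109 and 4.73 RPKM in CS. HD had 296, 195 and 2.21 RPKM, against 313, 68.3 and 7.33 RPKM in HS. At 50–100 mg the 4 lines were close together, and at 400–500 mg CD stood 11.02 times above CS while HS stood 3.31 times above HD. Glyma12g01260.1, with the same annotation, had 233, 267 and 38.8 RPKM in CD, against 184, 103 and 3.25 RPKM in CS. Its Harosoy values were 236, 182 and 1.85 RPKM in HD, against 249.9, 64.8 and 5.86 RPKM in HS. Its levels followed those of Glyma09g36080.1, with a ratio of the first to the second between 1.05 and 1.45 in the 12 libraries, and its splice model Glyma12g01260.2 had late ratios of 12.02 in Clark and 3.22 in Harosoy. At 100–200 mg both models were higher in each defective line, so the Harosoy order at that stage was the reverse of the order at 400–500 mg.

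Glyma09g38500.1, serine carboxypeptidase-like 20, had 373, 359 and 86.7 RPKM in CD, against 561, 294 and 25.8 RPKM in CS. In HD the values were 553, 333 and 12.999 RPKM, against 559.8, 146 and 56.3 RPKM in HS. The 2 Harosoy lines differed little at 50–100 mg, and HD was 2.28 times above HS at 100–200 mg before it was the lower of the pair. Glyma18g47820.1, also serine carboxypeptidase-like 20, had 122, 159 and 26.5 RPKM in CD, against 186, 135 and 7.08 RPKM in CS. HD had 186, 154 and 4.18 RPKM, against 188, 65.5 and 17.6 RPKM in HS. It showed the same order of libraries in each Harosoy pair at a lower level, with a ratio of Glyma09g38500.1 to it between 2.16 and 3.65. Both were lower at 400–500 mg than at 50–100 mg in all 4 lines.

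Glyma07g31200.1, serine carboxypeptidase-like 32, had 35.3, 46.6 and 55.6 RPKM in CD, against 23.6, 75.8 and 23.4 RPKM in CS. For Harosoy the values were 21.9, 27.6 and 26.3 RPKM in HD, against 33.9, 65.7 and 108 RPKM in HS. In this model HS held the highest of the 12 values, and CS was above CD at 100–200 mg but below it at the other stages. Glyma13g25280.1, also serine carboxypeptidase-like 32, had 17.6, 26.6 and 26.7 RPKM in CD, against 11.4, 47.5 and 10.8 RPKM in CS. The Harosoy pair had 11.7, 17.3 and 12.3 RPKM in HD, against 18.04, 41.8 and 51.5 RPKM in HS. The ratio of Glyma07g31200.1 to it was 1.57 to 2.16 over the 12 libraries. Unlike the other carboxypeptidases among the 56, neither was at least 2-fold lower at 400–500 mg than at 50–100 mg in any line.

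Subtilisin-like proteases gave 4 of the 9 models so annotated. Of the other 5, 2 were at least 2-fold higher and 0 lower in CD at 400–500 mg, and 0 were higher and 0 lower in HD. Glyma06g02500.1, a subtilisin-like protease, had 3429.6, 4051 and 299 RPKM in CD, against 4602, 2712 and 81.7 RPKM in CS. HD had 5664, 3635 and 66.3 RPKM, against 5958, 1136 and 171 RPKM in HS. It held the highest value of the 56 models at the earlier stages and was lower at 400–500 mg in every line, least so in CD. At 100–200 mg HD was 3.20 times above HS, the opposite of the late order.

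Glyma08g11500.1, a subtilisin-like protease, had 50.1, 73.1 and 37.4 RPKM in CD, against 29.3, 25.5 and 11.5 RPKM in CS. Its Harosoy values were 26.03, 28.5 and 9.54 RPKM in HD, against 37.2, 15.2 and 29.5 RPKM in HS. CD was the highest of the 4 lines at every stage, and HS was the lowest at 100–200 mg but above HD and CS at 400–500 mg. Glyma08g11660.1, a subtilisin-like protease on the same chromosome, had 28.2, 54.8 and 19.8 RPKM in CD, against 16.7, 14.6 and 6.62 RPKM in CS. In HD the values were 13.4, 21.7 and 5.01 RPKM, against 20.95, 12.3 and 17.7 RPKM in HS. The CD value was above that of the other lines at every stage here too, and the ratio of Glyma08g11500.1 to Glyma08g11660.1 was 1.23 to 1.95. Glyma05g28500.1, annotated as AIR3, named after an auxin-induced protease of Arabidopsis roots, had 27.7, 53.6 and 26.7 RPKM in CD, against 19.6, 22.02 and 8.43 RPKM in CS. HD had 18.02, 20.2 and 6.27 RPKM, against 28.5, 19.4 and 18.6 RPKM in HS. At 100–200 mg CD was 2.43 times above CS and the Harosoy lines were near each other.

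**Figure D2:**
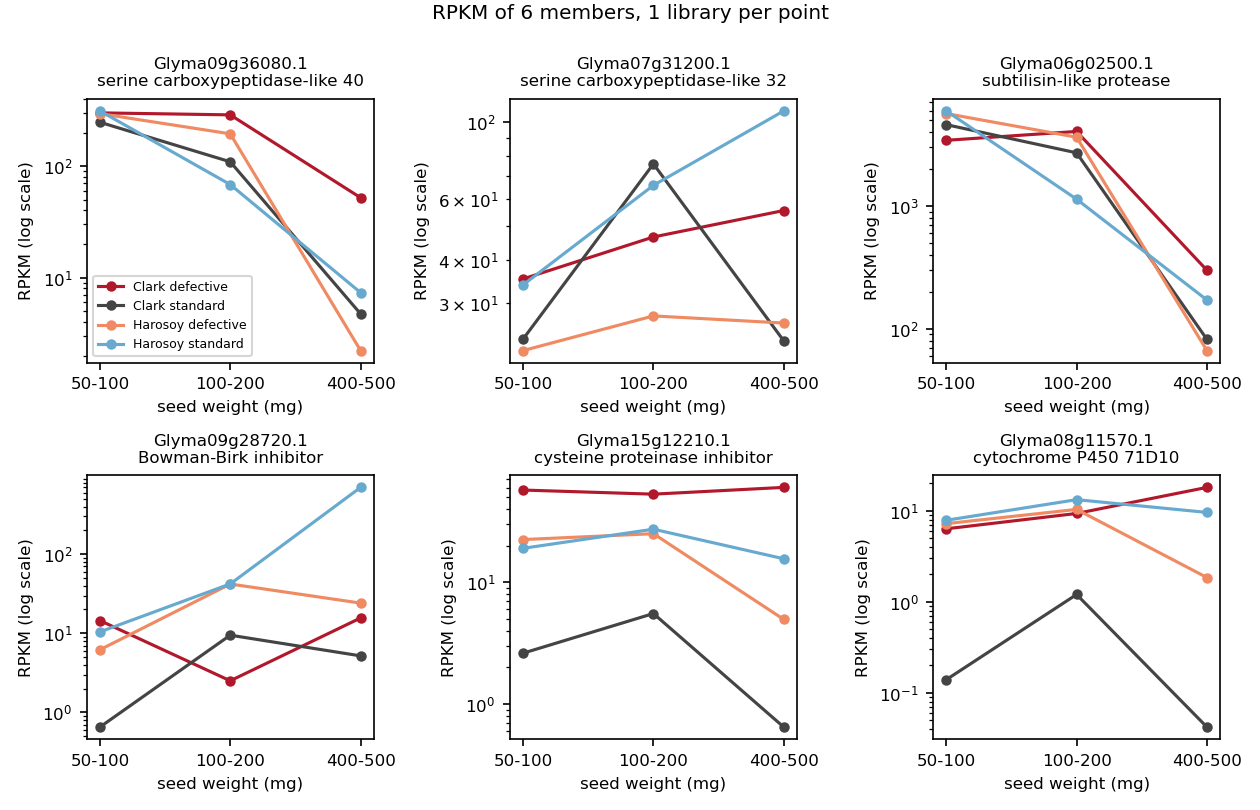
RPKM (log axis) of 6 of the models at 50–100, 100–200 and 400–500 mg in CD, CS, HD and HS, with 1 library per point and no error. In the proteases of the top row the lines crossed between stages, and in the cysteine proteinase inhibitor and the cytochrome P450 of the bottom row CS was the lowest line at each stage.

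Proteinase inhibitors gave 3 of the 20 models so annotated. Of the other 17, 0 were at least 2-fold higher and 5 lower in CD at 400–500 mg, and 3 were higher and 0 lower in HD. Glyma09g28720.1, Bowman-Birk type proteinase inhibitor C-II, had 14.5, 2.51 and 15.6 RPKM in CD, against 0.651, 9.46 and 5.18 RPKM in CS. For Harosoy the values were 6.19, 41.998 and 24.1 RPKM in HD, against 10.4, 42.1 and 699.9 RPKM in HS. HS at 400–500 mg held the highest value, and no other library was above 42.1 RPKM. The Clark order was not steady, since CD was above CS at 50–100 and 400–500 mg and below it at 100–200 mg.

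Glyma14g26400.1, with the same annotation, had 14.5, 2.51 and 15.6 RPKM in CD, against 0.651, 9.41 and 5.103 RPKM in CS. The Harosoy pair had 6.19, 41.7 and 23.98 RPKM in HD, against 10.3, 42.05 and 698 RPKM in HS. Its ratio to Glyma09g28720.1 lay between 1 and 1.02, taken as the first over this one, while Glyma09g28720.1 itself spanned a 1075-fold range. Glyma09g28710.1, the numbered neighbor listed as unknown, had 16.3, 3.34 and 18.2 RPKM in CD, against 0.871, 8.62 and 5.698 RPKM in CS. HD had 6.67, 37.7 and 25.4 RPKM, against 11.4, 41.3 and 686 RPKM in HS. Here the ratio of Glyma09g28720.1 to it was 0.747 to 1.12. These 3 models cannot be taken as separate measurements.

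Glyma15g12210.1, cysteine proteinase inhibitor 5 of the cystatin family that blocks papain-like proteases, had 57.3, 53.03 and 60.3 RPKM in CD, against 2.62, 5.55 and 0.648 RPKM in CS. Its Harosoy values were 22.5, 25.1 and 4.96 RPKM in HD, against 19.04, 27.3 and 15.6 RPKM in HS. CS was the lowest line at each stage, 21.9, 9.56 and 93.1 times below CD. The Harosoy lines lay between the Clark lines at each stage, and HS was at least 2-fold above HD only at 400–500 mg.

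Glyma08g11570.1, annotated as cytochrome P450 71D10, a monooxygenase, had the largest smaller ratio of the 56 models. It had 6.34, 9.35 and 18.1 RPKM in CD, against 0.139, 1.202 and 0.0419 RPKM in CS. In HD the values were 7.22, 10.4 and 1.85 RPKM, against 7.86, 13.3 and 9.596 RPKM in HS. CS was again the lowest line at every stage, and the values rest on 1054, 1048 and 1328 hits in CD, against 18, 210 and 5 hits in CS. The 5 hits have an exact Poisson 95% interval of 1.62 to 11.7 hits, which covers counting error only. In Harosoy the pair was close at 50–100 and 100–200 mg, and HS was 5.197 times above HD at 400–500 mg.

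Glyma08g11500.1, Glyma08g11570.1 and Glyma08g11660.1 lie in 1 numbered stretch of chromosome 8, Glyma08g11450 to Glyma08g11680, which was singled out after its values were seen. Of the 19 first splice models there at 5 RPKM or more in a Clark library, 5 were at least 2-fold higher in CD than in CS at all 3 stages. By the same filter this held for 46 of 21870 first splice models of the table, or 0.210%. The stretch was drawn around members chosen on the late Clark pair, which these counts use again, so nothing is read from them. Of the 3 members named, only Glyma08g11570.1 was among the 5. At 50–100 mg CD was 1.71 times above CS in Glyma08g11500.1 and 1.69 times in Glyma08g11660.1. In Harosoy 0 of the 19 models differed at least 2-fold in a constant direction at all stages. At 50–100 mg alone only 0.298% of all models were at least 2-fold higher and 0.273% lower in HD, so this 0 sets the stretch apart from no other. The late Clark difference of the 56 models was fixed by their choice. In both earlier Clark pairs 2 of the 49 that reached 5 RPKM in each were at least 2-fold higher in CD, Glyma08g11570.1 and Glyma15g12210.1, against 0.405% of all models. The stretch also holds models annotated as chalcone synthase, the first enzyme of flavonoid synthesis, and none of these was among the 56.

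Of the 3 models in the cell wall category, Glyma07g31770.1, of the pollen Ole e 1 and extensin family, differed most. It had 29.8, 72.6 and 60.1 RPKM in CD, against 35.9, 41.9 and 8.98 RPKM in CS. HD had 32.4, 50.9 and 1.53 RPKM, against 31.1, 18.8 and 7.02 RPKM in HS. At 400–500 mg CD was at least 2-fold higher than at 50–100 mg, and the other 3 lines were at least 2-fold lower. Glyma13g01950.1, a probable beta-D-xylosidase, which removes xylose from wall polymers, had 28.2, 83.2 and 6.87 RPKM in CD, against 38.5, 63.8 and 3.38 RPKM in CS. For Harosoy the values were 49.4, 108 and 5.76 RPKM in HD, against 62.4, 38.2 and 16.5 RPKM in HS. It was 1 of 5 beta-D-xylosidase models in the lists, and of the other 4, 0 were at least 2-fold higher and 1 lower in CD, and 1 was higher and 3 lower in HD, at 400–500 mg. All 4 lines were lower at that stage than at 50–100 mg, and HS had the highest of the 4 late values. Glyma13g31840.1, a glycine-rich protein, had 224, 148 and 19.99 RPKM in CD, against 318, 109 and 9.397 RPKM in CS. The Harosoy pair had 237, 120.01 and 2.73 RPKM in HD, against 200.4, 66.7 and 7.35 RPKM in HS. Its level was lower at each later stage in every line, and HD at 400–500 mg was the lowest library.

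The transcription factor category held 7 models, each under 50 RPKM in all 12 libraries. Glyma01g43420.1, probable WRKY factor 41, had 3.17, 1.42 and 15.6 RPKM in CD, against 1.32, 3.31 and 7.53 RPKM in CS. HD had 0.485, 0.203 and 1.12 RPKM, against 0.395, 35.4 and 5.06 RPKM in HS. HS at 100–200 mg stood 174 times above HD, the widest ratio of any of the 56 models in an earlier pair. Of the other 13 WRKY models in the lists, 1 was at least 2-fold higher and 4 lower in CD at 400–500 mg, and 0 were higher and 4 lower in HD. Glyma12g26780.1, ethylene-responsive factor 4, a repressor in Arabidopsis, had 23.3, 12.2 and 48.9 RPKM in CD, against 15.6, 13.1 and 23.2 RPKM in CS. Its Harosoy values were 18.7, 9.79 and 15.3 RPKM in HD, against 15.9, 35.1 and 36.7 RPKM in HS. HS was 3.58 times above HD at 100–200 mg and 2.40 times at 400–500 mg, whereas HD was slightly the higher at 50–100 mg.

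Glyma11g03850.1, the homeobox-leucine zipper protein HAT4, had 6.26, 12.3 and 6.85 RPKM in CD, against 3.12, 8.405 and 1.76 RPKM in CS. In HD the values were 3.07, 2.08 and 1.697 RPKM, against 4.71, 8.99 and 6.14 RPKM in HS. It was the only one of these 7 with a higher CD and a lower HD value at all 3 stages. Glyma18g02920.1, a RING finger protein of the class that often marks proteins for breakdown, had 10.6, 12.7 and 23.6 RPKM in CD, against 8.63, 13.7 and 9.82 RPKM in CS. HD had 8.86, 9.79 and 12.99 RPKM, against 7.35, 38.1 and 31.5 RPKM in HS. HS was above HD by 3.89 times at 100–200 mg and 2.43 times at 400–500 mg. Glyma17g37710.1, a C2H2 zinc finger protein, had 3.99, 2.87 and 7.23 RPKM in CD, against 2.26, 5.19 and 2.69 RPKM in CS. For Harosoy the values were 3.25, 3.09 and 1.13 RPKM in HD, against 3.82, 13.9 and 7.31 RPKM in HS. The same Harosoy order held at all 3 stages here.

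Glyma05g31400.1, bZIP factor 133, had 3.39, 3.02 and 5.505 RPKM in CD, against 3.08, 3.099 and 2.44 RPKM in CS. The Harosoy pair had 4.25, 3.25 and 1.94 RPKM in HD, against 3.82, 6.596 and 6.76 RPKM in HS. Its 12 values spanned a narrow range, and it passed the 2-fold criteria by 2.26 in Clark and 3.48 in Harosoy. Glyma12g05240.1, of the B3 family, had 22.8, 28.04 and 14.3 RPKM in CD, against 31.3, 19.6 and 6.397 RPKM in CS. HD had 29.4, 21.9 and 2.12 RPKM, against 30.5, 12.9 and 5.54 RPKM in HS. This was the one factor of the 7 that was at least 2-fold lower at 400–500 mg than at 50–100 mg in CS, HD and HS.

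The remaining annotated models were 3 of lipid metabolism and 6 of other functions. Glyma01g09190.1, a GDSL esterase/lipase, had 62.1 RPKM in CD against 28.6 in CS, and 18.99 RPKM in HD against 42.6 in HS at 400–500 mg, with 44.5 to 244 RPKM in the 8 earlier libraries. Glyma08g43640.1, a probable glycerophosphoryl diester phosphodiesterase, had 15.6 RPKM in CD against 3.57 in CS, and 3.696 RPKM in HD against 9.07 in HS, with 13.4 to 27.1 RPKM earlier. Glyma20g37810.1, lipoxygenase 1, which oxygenates polyunsaturated fatty acids, had 16.2 RPKM in CD against 7.44 in CS, and 2.996 RPKM in HD against 7.81 in HS, with 17.01 to 51.3 RPKM earlier. In all 3 models the late CS, HD and HS values were below the earlier range, and in Glyma20g37810.1 the late CD value was too.

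Glyma17g37770.1, a beta-tubulin, had 14.3 RPKM in CD against 5.103 in CS, and 1.85 RPKM in HD against 6.101 in HS at 400–500 mg, with 17.9 to 33.7 RPKM earlier. It was 1 of 8 tubulin models in the lists, and of the other 7, 4 were at least 2-fold higher and 0 lower in CD, and 0 higher and 3 lower in HD, at that stage. Glyma11g36600.1, UDP-glucuronate 4-epimerase 6, which makes a sugar donor for pectin, had 10.2 RPKM in CD against 2.94 in CS, and 2.43 RPKM in HD against 7.27 in HS, with 16.8 to 52.6 RPKM earlier. Glyma09g11990.1, a beta-glucuronidase, had 15.3 RPKM in CD against 4.44 in CS, and 4.95 RPKM in HD against 13.2 in HS, with 30.4 to 127 RPKM earlier. In these 3 models each late value was under every earlier value.

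Glyma16g09760.1, AIR12, an auxin-induced protein of Arabidopsis roots, had 53.7 RPKM in CD against 26.2 in CS, and 12.9 RPKM in HD against 30.1 in HS at 400–500 mg, with 26.3 to 63.8 RPKM earlier. Glyma03g17000.1, a proton-dependent oligopeptide transporter, had 10.8 RPKM in CD against 5.32 in CS, and 5.12 RPKM in HD against 16.9 in HS, with 3.62 to 16.8 RPKM earlier. Glyma07g03860.1, a kelch repeat F-box protein, had 17.1 RPKM in CD against 8.28 in CS, and 7.75 RPKM in HD against 19.1 in HS, with 6.61 to 28.9 RPKM earlier. In these models the late values of all lines lay within or close to the range of the earlier ones, except HD in Glyma16g09760.1.

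Among the 23 models with no annotated function, the ratio of CD to CS reached 12.02 and the ratio of HS to HD reached 27.0 at 400–500 mg, in the second splice model of Glyma12g01260 and in Glyma09g28710.1. By the smaller of its late ratios, 5.08 in Harosoy, the locus Glyma13g38560, listed as unknown, stood highest of the 23. Its first splice model had 4.701, 16.2 and 5.57 RPKM in CD, against 9.396, 7.62 and 1.01 RPKM in CS. Its Harosoy values were 3.67, 3.404 and 1.31 RPKM in HD, against 4.71, 6.94 and 6.67 RPKM in HS. CS was above CD at 50–100 mg and below it at the later stages, and the second splice model followed with a ratio of the first to it of 0.984 to 1.06. Glyma07g28940.1, in none of the lists and named after its values were seen, had 733, 1365 and 37.9 RPKM in CD, against 1299.8, 1418 and 3.85 RPKM in CS. In HD the values were 1495, 1382 and 3.32 RPKM, against 1608, 253 and 7.32 RPKM in HS. It was among the most abundant of the 56 at 50–100 mg, and all 4 lines were lower at 400–500 mg, CD least so. The 12 models listed as unknown had median late ratios of 3.07 in Clark and 3.18 in Harosoy, and the 11 in none of the lists had 2.34 and 2.19, taken as CD to CS and HS to HD. The heat map gives the level of all 56 models.

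**Figure D3:**
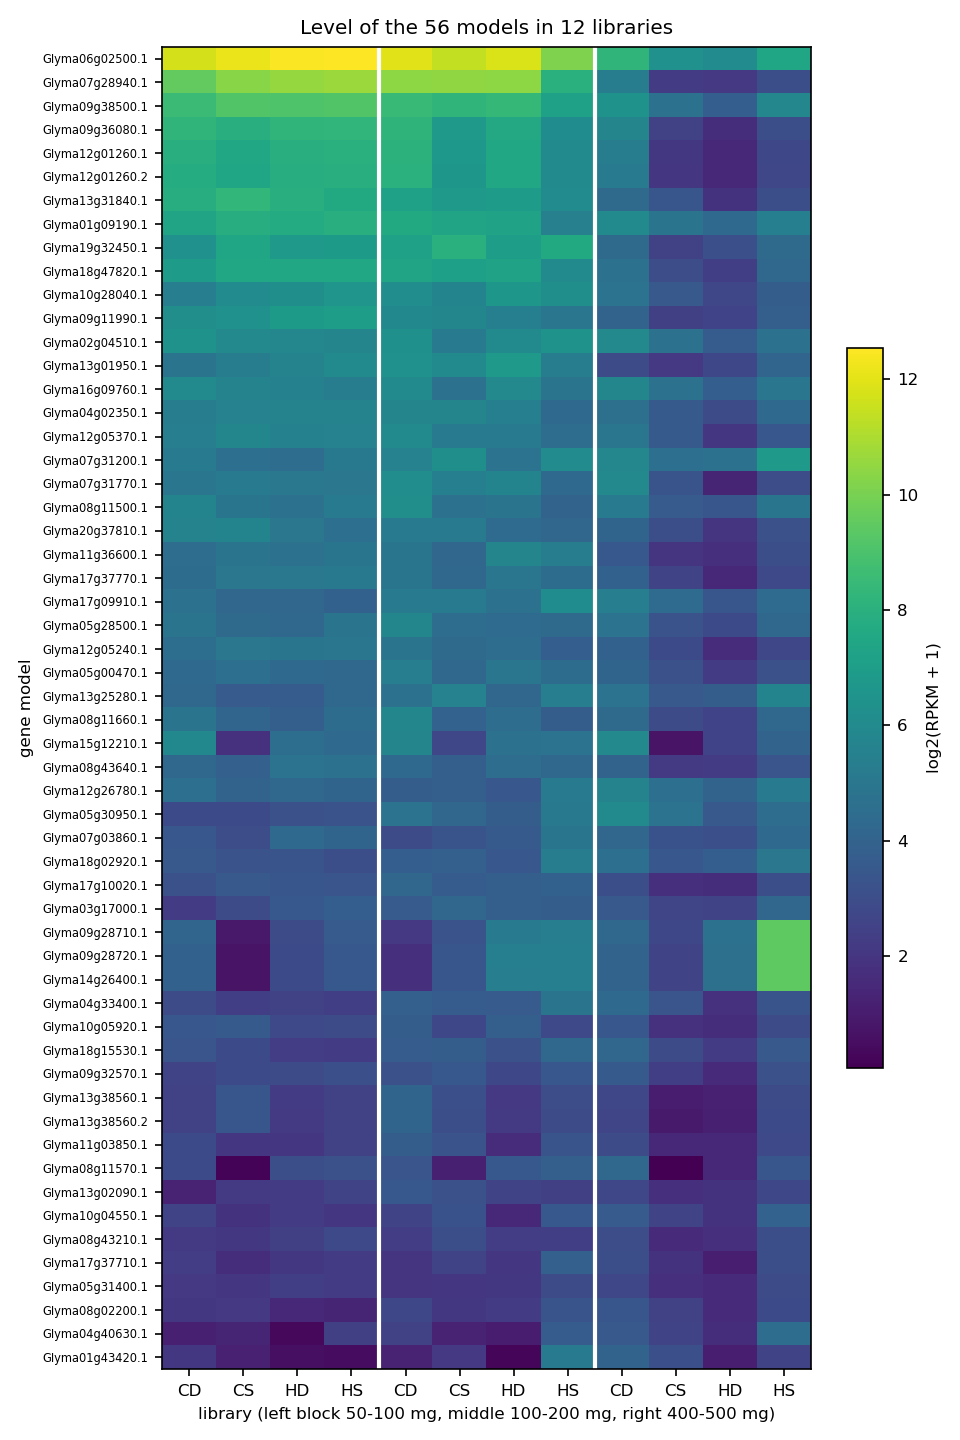
Level of the 56 models, as log2(RPKM + 1), in the 12 libraries, with CD, CS, HD and HS side by side within each of the 3 stages and models ordered by their mean over the 8 earlier libraries. At 400–500 mg the CS and HD columns are both darker than the CD and HS columns in 45 of the 56 models, and the order within each pair was fixed by the choice of the models.

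The earlier isoline pairs were not used in choosing the models. At 50–100 mg, 49 of the 56 reached 5 RPKM in the Clark pair, and 6 were at least 2-fold higher and 2 lower in CD, against 2.91% and 1.02% of all models. In the Harosoy pair 45 reached 5 RPKM, and 0 were higher and 0 lower in HD, against 0.298% and 0.273% of all models. At 100–200 mg, 14 of 53 were higher and 3 lower in CD, against 3.03% and 1.74%. In the Harosoy pair 13 of 55 were higher and 17 lower in HD, against 5.78% and 8.50%. In at least 1 earlier pair 42 of the 56 differed at least 2-fold in either direction, and 14 did so in none. Of all models at 5 RPKM or more in an earlier library, 15.9% did so in at least 1. Near-identical models and splice models count more than once in these numbers. The 3 lower in CD at 100–200 mg were the Bowman-Birk models and Glyma09g28710.1, which were also among the 6 higher at 50–100 mg. The models higher in CD at 100–200 mg included both splice models of Glyma12g01260 and of Glyma13g38560.

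The median log2 ratio of defective to standard was 0.01 in Clark and -0.08 in Harosoy at 50–100 mg, and 0.43 and 0.05 at 100–200 mg, where the median over all models was 0.03, -0.03, -0.01 and -0.06 in the same order. At 400–500 mg it was 1.26 in Clark and -1.37 in Harosoy, which the criteria fixed. The Clark median at 50–100 mg was 0.35 for the models chosen at 3-fold and -0.11 after rescaling the libraries. At 100–200 mg 52 of the 56 models reached 5 RPKM in each pair. Of these 1 was at least 2-fold higher in CD and lower in HD, Glyma13g38560.1, against 0.126% of all models, and 5 were higher in both defective lines, against 1.29%. Without a minimum ratio, CD was above CS in both earlier Clark pairs and HD below HS in both earlier Harosoy pairs for 3 of the 56 models, against 7.91% of all models at 5 RPKM or more in an earlier library. The share of the 56 was near that of all models, and the 3 were Glyma05g30950.1, Glyma08g11570.1 and Glyma11g03850.1.

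**Figure D4:**
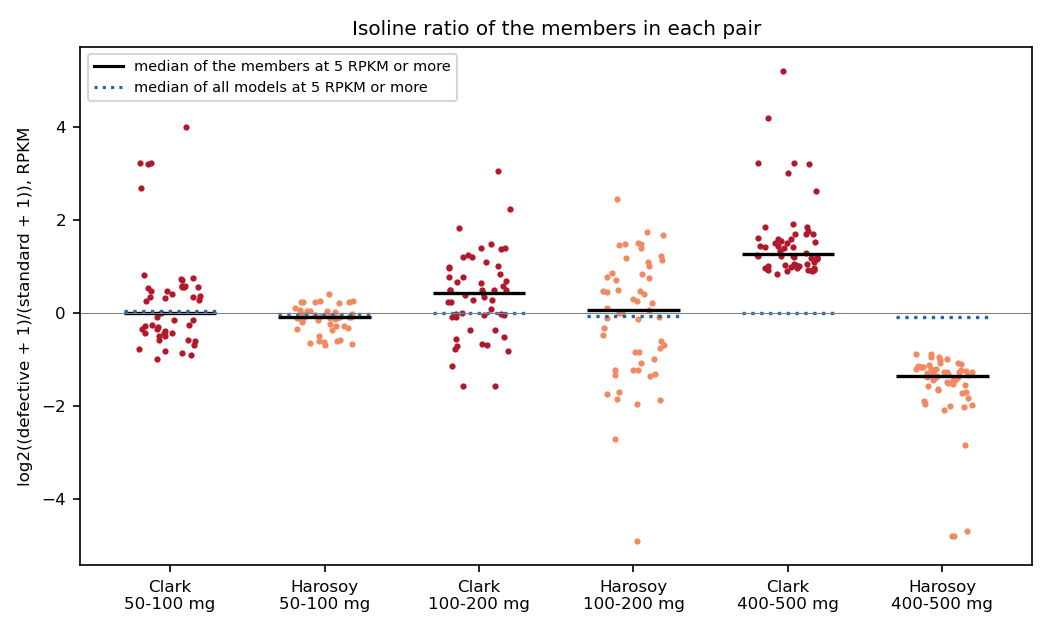
Log2 ratio of defective to standard, with 1 RPKM added, in each of the 6 isoline pairs, for the members at 5 RPKM or more in either library, 1 point per model. Black lines are their medians and dotted lines the medians of all models at 5 RPKM or more, and the 2 late columns lie fully on either side of 0 because the models were chosen there.

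In the Harosoy pair at 100–200 mg the 56 models were spread widely in both directions. The 13 models higher in HD included Glyma06g02500.1, both serine carboxypeptidase-like 40 loci, both serine carboxypeptidase-like 20 models, Glyma07g28940.1 and the beta-D-xylosidase. The 17 models lower in HD included 6 of the 7 in the transcription factor category and both serine carboxypeptidase-like 32 models. PRP1 had 5890.2 RPKM in HD and 162 in HS at 100–200 mg, and PRP2 had 8.68 RPKM in HD and 3438 in HS. The 8 cotyledon markers summed to 423 RPKM in HD and 508 in HS, without a common order. The glycinin Glyma03g32030.1 had 61.5 RPKM in HD and 0.756 in HS, whereas Glyma10g39150.1 had 90.4 in HD and 301 in HS. The part of these differences in the result was not tested.

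Development within each line was described from 50–100 to 400–500 mg, stages that shared a platform and read length. As the late libraries chose the models, these are descriptions. Counts are of models at 5 RPKM or more in either library, and at least 2-fold apart. In CD, 14 of 56 models were lower and 14 higher at 400–500 mg, against 12.1% and 9.73% of all models, and their median was 0.05 on the log2 scale. In CS, 30 of 48 were lower and 7 higher, against 13.8% and 15.2%, with a median of -1.70. In HD, 34 of 43 were lower and 3 higher, against 19.4% and 14.1%, with a median of -2.13. In HS, 22 of 56 were lower and 14 higher, against 14.6% and 12.6%, with a median of -0.25.

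In each of the 4 lines 41 of the 56 models reached 5 RPKM at 50–100 or 400–500 mg. Of these 28 were lower in both CS and HD, against 12.5% of all models, and 14 of 41 were lower in all 4 lines, against 9.14%. Low late values in CS and HD are what the criteria selected, so nothing is read from these counts. These 14 were the serine carboxypeptidase-like 40 and 20 models with the extra splice model, Glyma06g02500.1, Glyma07g28940.1, the xylosidase, the glycine-rich protein, the beta-glucuronidase, the epimerase, the lipoxygenase, the GDSL esterase/lipase and Glyma19g32450.1. The lowest of the 12 libraries was a late one in 42 models, HD in 32 and CS in 10. A further 16 models were lower in no line and higher in at least 1, and they included Glyma01g43420.1, the Bowman-Birk models and Glyma12g26780.1. The 4 models that were lower in some lines and higher in others were Glyma03g17000.1, Glyma07g31770.1, Glyma08g11570.1 and Glyma09g32570.1.

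**Figure D5:**
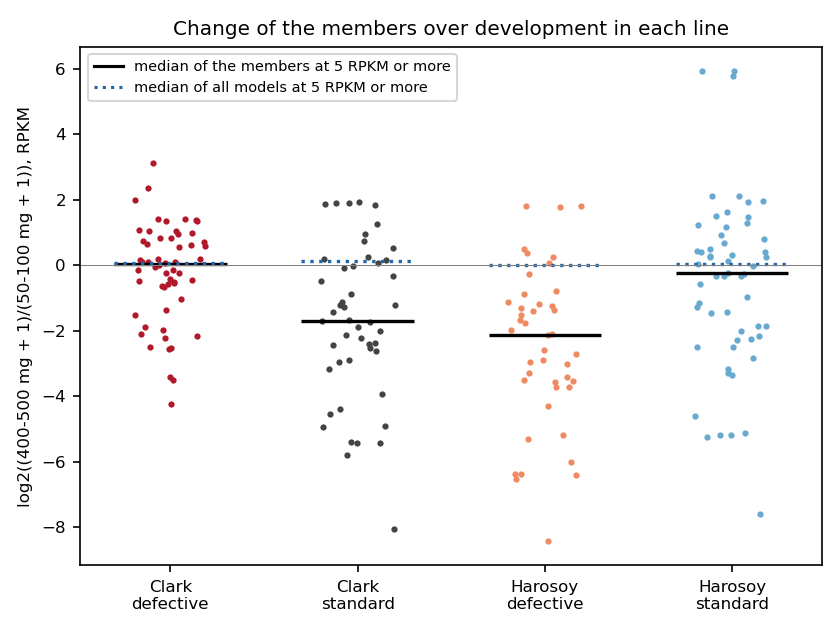
Log2 change from 50–100 to 400–500 mg, with 1 RPKM added, for the members at 5 RPKM or more at either stage, in CD, CS, HD and HS, 1 point per model. Black lines are their medians, 0.05 in CD, -1.70 in CS, -2.13 in HD and -0.25 in HS, and dotted lines are the medians of all models at 5 RPKM or more.

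A test that used libraries outside the choice of the models was made on the 8 libraries of 50–100 and 100–200 mg. limma with a trend was fitted to log2(RPKM + 1) of 44699 models that reached 1 RPKM in 2 or more of the 8 libraries, with effects of stage, variety, genotype and their interaction, and p-values were adjusted by the Benjamini-Hochberg method over all of them. The residual came from how the lines differed over 2 stages, with 3 degrees of freedom. For variety, genotype and interaction the 2 stages of a line served as its repeats, so spread between replicate lines is not in their error. All 56 models passed this filter.

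For the difference between defective and standard, limma called 0 of the 56 models and 0 of all models in either direction at an adjusted p under 0.05, and at an unadjusted p under 0.05 there were 6 of the 56 and 1560, or 3.49%, of all. The smallest p-values belonged to Glyma15g12210.1 with a log2 difference of 1.79 ± 0.18 (SE), adjusted p = 0.495, and Glyma08g11570.1 with 1.12 ± 0.12 (SE), adjusted p = 0.532. The interaction asks whether the difference between defective and standard was unlike in Clark and Harosoy, which does not require opposite directions. For it limma likewise called 0 of the 56 and 0 of all models. At an unadjusted p under 0.05 there were 5 of the 56 and 803, or 1.80%, of all. The same models led, Glyma08g11570.1 with 2.68 ± 0.24 (SE), adjusted p = 0.602, and Glyma15g12210.1 with 3.47 ± 0.35 (SE), adjusted p = 0.602. The median interaction of the 56 models was 0.21, beside 0.02 over all models.

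For stage, 6 of the 56 models were higher and 3 lower at 100–200 mg than at 50–100 mg by limma, against 12.03% and 12.4% of all models. The median stage difference was 0.31 for the 56 models and -0.03 over all. Glyma05g30950.1, in none of the lists, rose on the log2 scale by 1.43 ± 0.24 (SE), adjusted p = 0.0113, and Glyma04g33400.1, also in none, rose by 1.47 ± 0.26 (SE), adjusted p = 0.014. The P450 Glyma08g11570.1 rose by 0.65 ± 0.12 (SE), adjusted p = 0.0165, and the carboxypeptidase Glyma13g25280.1 by 1.06 ± 0.25 (SE), adjusted p = 0.0322. Glyma18g15530.1 and Glyma17g10020.1, both listed as unknown, rose by 1.01 ± 0.26 (SE), adjusted p = 0.0382, and 0.55 ± 0.15 (SE), adjusted p = 0.0484. Lower at 100–200 mg were the glycine-rich protein Glyma13g31840.1 with -1.17 ± 0.22 (SE), adjusted p = 0.017, the lipoxygenase Glyma20g37810.1 with -0.51 ± 0.11 (SE), adjusted p = 0.0214, and the beta-glucuronidase Glyma09g11990.1 with -1.10 ± 0.29 (SE), adjusted p = 0.0418. Each of the 9 had its direction in 4 of 4 lines, which is no separate check because these lines made the calls. Without either Clark pair limma called 0 of the 56 and 0 of all models, and without either Harosoy pair it called 4 of the 56.

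Glyma05g30950.1 had 6.27, 27.4 and 62.5 RPKM in CD, against 6.23, 17.3 and 26.7 RPKM in CS. HD had 8.02, 12.6 and 10.7 RPKM, against 8.68, 33.1 and 21.6 RPKM in HS. Every line was higher at 100–200 mg than at 50–100 mg, and HS was above HD at all 3 stages. Glyma04g33400.1 had 6.64, 14.03 and 19.2 RPKM in CD, against 4.26, 11.8 and 9.14 RPKM in CS. For Harosoy the values were 4.78, 11.5 and 2.59 RPKM in HD, against 4.21, 28.3 and 8.7999 RPKM in HS. Its 4 values at 50–100 mg were all below its 4 values at 100–200 mg.

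For the variety, 1 of the 56 models was higher and 1 lower in Clark than in Harosoy over the earlier libraries by limma, against 0.376% and 0.282% of all models. Glyma20g37810.1 was higher in Clark by 0.86 ± 0.11 (SE), adjusted p = 0.0409. Glyma08g11570.1 differed by -1.49 ± 0.12 (SE), adjusted p = 0.0163. Both had their direction in 4 of 4 comparisons of like genotype and stage, which used the same lines at both stages. The same libraries made the calls, so this is no separate check. In Glyma08g11570.1 CD and HD were close, with 6.34 and 7.22 RPKM at 50–100 mg and 9.35 and 10.4 RPKM at 100–200 mg. CS had 0.139 RPKM against 7.86 in HS at 50–100 mg, and 1.202 against 13.3 at 100–200 mg. Most of its variety difference therefore lay between CS and HS. Leaving out any of the 4 pairs, which leaves fewer residual degrees of freedom, ended both calls. The estimates then stayed between -1.56 and -1.41 for Glyma08g11570.1, and between 0.854 and 0.860 for Glyma20g37810.1.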

How the data were processed

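RNA-Seq libraries of 12 seed coat samples (4 lines at 3 weight ranges, 1 library each) were used. The authors aligned the reads to the soybean gene models with Bowtie, accepted at most 3 mismatches and 25 alignments for a read, and deposited normalized values in RPKM for 78773 models. Groups were taken from the sample labels. The authors' own comparison columns and DESeq p-values were not used, and 0 columns belonged to samples outside the series. Hit numbers behind RPKM were worked out from the RPKM values alone, with library totals and model lengths inferred so that hits were whole. For each of the 56 members the smallest length that gave whole hits within 0.02 in all 12 libraries was taken. Whole hits are therefore no check on these lengths and totals. At the median member length, 5 RPKM stood for 283 to 673 hits, and intervals cover counting error only.

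Ratios used the RPKM as deposited, and log2 values were taken after adding a pseudocount of 1 RPKM, which understates the change of low models. limma 3.58.1 in R 4.3.3 was fitted with a trend to the 8 libraries of 50–100 and 100–200 mg, for models with at least 1 RPKM in 2 libraries, and p-values were adjusted by Benjamini-Hochberg with a threshold of 0.05. These p-values measure only how single libraries of the lines differed over 2 stages, with 3 residual degrees of freedom. They hold no spread between replicate lines. Tables were handled in Python 3.11.15 with numpy 2.4.6 and pandas 2.3.3, and plots were drawn with matplotlib 3.10.9. The interaction was also fitted to data simulated with independent noise in each library. It found 93 of 100 models changed by 3 on the log2 scale and 100 of 100 changed by 6, with 21 false calls. The simulated noise held no spread between lines, so it cannot show how the fit behaves without replicate lines. Models were named when annotated with a function, when among the 5 with the largest smaller ratio or the 5 with the highest late RPKM in CD or HS, when called by limma, or when nearest to a threshold. Alternatives were other pseudocounts, filters, folds, scalings, fits without 1 pair, and, chosen after seeing the data, near-identical models counted once and the isoline pair as a block. The members and lists were chosen with earlier results of these data known.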

Additional observations from a re-analysis of the deposited data

How the results depend on the processing

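The number of models depended on the criteria: 15 at 3-fold, 28 with a minimum of 10 RPKM and 164 with a minimum of 1 RPKM, against 56. The number past the criteria in an earlier pair was 16 at 3-fold, against 42. For stage, limma called 5 of the 56 with no filter and 0 to 4 with 1 pair left out, against 9. For variety it called 1 with a pseudocount of 0.1, 1 with a pseudocount of 5, 1 with a filter of 5 RPKM and 0 with any pair left out, against 2. Genotype and interaction gave 0 under every alternative run. The Clark median log2 ratio at 50–100 mg (0.01) was 0.35 for models chosen at 3-fold, and -0.11 with a minimum of 10 RPKM, with rescaled libraries or with near-identical models counted once, an alternative chosen after seeing the data. The Clark median at 100–200 mg (0.43) was 0.996 at 3-fold, and the Harosoy median (0.05) was 0.25 with a minimum of 10 RPKM. The late Clark median (1.26) was 1.71 at 3-fold, 1.43 with a pseudocount of 0.1 and 0.94 with a pseudocount of 5. The late Harosoy median (-1.37) was -1.70 at 3-fold, -1.21 after quantile normalization, -1.62 with a pseudocount of 0.1 and -0.88 with a pseudocount of 5. The cause of these differences was not tested. limma made 11 calls of single models, 9 for stage and 2 for variety, and Glyma08g11570.1 and Glyma20g37810.1 were called for both. For these calls 76 of 88 alternatives kept the call, 12 lost it and 0 reversed. With 1 pair left out, which leaves fewer residual degrees of freedom, 4 of 44 kept it. With the isoline pair of each variety and stage as a block, an alternative chosen after seeing the data that leaves 2 degrees of freedom, limma called 0 of the 56 for genotype and 0 for the interaction, with 8 and 6 at an unadjusted p under 0.05. No replicate numbers could pair the samples, since each line and stage had 1 library. With 1 library per line and stage, differences within a pair carry no replicate error.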
